A study of Mus musculus with 5 samples.

Results

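Blood endothelial cells are the flat cells that line arteries, capillaries and veins. They were picked out of the mouse ovary by 6 genes: Egfl7, Flt1, Ctla2a, Ly6c1, Esam and Cd93. A cell belonged to the set when it held at least 1 UMI (unique molecular identifier, the tag that counts 1 captured RNA molecule) of at least 4 of these 6 genes, at most 4 UMIs of the granulosa gene Inha, and 0 UMIs of Prox1 and Lyve1 (lymphatic endothelium), Ptprc (leukocytes) and Rgs5 (pericytes). It also had to show at least 500 detected genes and a mitochondrial share of UMIs under 15%. This rule took 415 of 41870 kept cells. The cells were thus chosen by the UMIs of these 6 genes and of the 5 genes left out, so their levels, and every level of these cells against other cells, are descriptions.

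Endothelial cells form one continuous sheet through the vascular tree, but they differ with the vessel they line. Arterial cells bear strong flow and depend on Notch signalling, capillary cells exchange solutes with the tissue, and venous cells, the postcapillary venules above all, display the adhesion molecules that leukocytes grip. The ovary is unusual among adult organs in that its vessels keep growing and regressing with each follicle and corpus luteum. VEGF receptors, Notch ligands and guidance receptors set where new sprouts form.

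The study followed ovaries of untreated C57BL6/J mice through puberty, at 2, 3, 4, 5 and 6 wk of age, with 1 single-cell library per age. Ovaries were dissociated with trypsin for 20 min at 37 °C, and live cells were sorted by flow cytometry and captured with version 3.1 of the 3′ chemistry of 10x Genomics. How many mice went into a library is not given in the sources used here. With 1 library per age no test between ages is possible, so ratios between ages compare single libraries, and the 95% intervals given here cover counting error only.

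The 5 libraries held 124938004, 93438618, 117666094, 107071492 and 144609431 UMIs at 2, 3, 4, 5 and 6 wk. Of 9471, 9253, 11077, 7779 and 10583 cells, 8075, 8079, 9508, 6923 and 9285 were kept. According to their headers, the tables of the first 3 ages came from Cell Ranger 3.1.0 and those of 5 and 6 wk from release 6.0.1. The ratios of 5 over 2 wk and of 6 over 3 wk therefore cross both age and software version, and these cannot be told apart. The ratios of 4 over 2 wk and of 6 over 5 wk stay within 1 version and are given beside the main results. Cell barcodes shared by a pair of libraries numbered 18 to 35, and no blood endothelial cell had its barcode in common with a blood endothelial cell of another library.

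By the rule there were 56, 30, 52, 177 and 100 blood endothelial cells in the libraries of 2, 3, 4, 5 and 6 wk. They made up 0.693% (exact binomial interval 0.524 to 0.900) of kept cells at 2 wk, 0.371% (0.251 to 0.530) at 3 wk, 0.547% (0.409 to 0.717) at 4 wk, 2.56% (2.20 to 2.96) at 5 wk and 1.08% (0.877 to 1.31) at 6 wk. The 5 wk library stood above the other 4, and its share was 6.89-fold (4.66 to 10.5) that of the 3 wk library. Within one software version the ratio of shares was 0.789 for 4 over 2 wk and 0.421 for 6 over 5 wk. After each cell was thinned to 2000 UMIs and shallower cells were left out (363, 452, 355, 307 and 503 cells), the rule gave 0.506%, 0.288%, 0.470%, 3.01% and 1.08%. Dissociation and the live sort can set such shares, and their part in them was not tested.

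**Figure D1:**
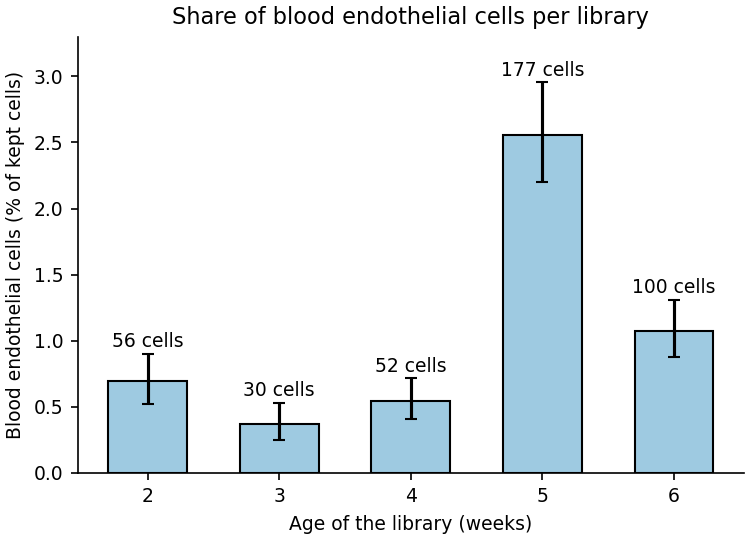
Blood endothelial cells as a percentage of kept cells (y axis) against the age of the library in weeks (x axis), 1 library per age. Bars give the share, lines its exact 95% binomial interval, and the numbers the count of cells; the 5 wk bar, at 2.56%, stands above all others.

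Depth differed as well. The cells together held 617484, 167523, 355451, 2778151 and 1224273 UMIs at 2, 3, 4, 5 and 6 wk, with medians of 9228, 5125.5, 5517, 12684 and 10657 UMIs per cell. The unit of level is CPM: for each library, a gene's UMIs in blood endothelial cells were divided by all their UMIs and multiplied by 1000000. Each counted molecule is a 3′ tag, so that no length enters this value. A single UMI equals 5.97 CPM at 3 wk and 0.360 CPM at 5 wk. One cell carried 14.0% of the UMIs at 3 wk and 1.65% at 5 wk. The 3 wk library is thus the least precise, and statements that rest on it are the weakest. A lower level in such a sum can mean fewer cells of one kind or less RNA per cell, which cannot be told apart in it.

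The threshold of 4 genes was set against cells on either side of it. Of 23 members with exactly 4 of the 6 genes, 69.6% held a UMI of Pecam1, the adhesion molecule between endothelial cells, at a median of 2749 UMIs per cell. Of 20 cells with 3 of the 6 genes that passed every other condition, 35% did, at a median of 1752 UMIs. Members with 5 and 6 genes numbered 84 and 308, and held Pecam1 in 90.5% and 95.8%. In all, 596 cells had at least 4 of the 6 genes, and 181 of them were left out: 109 for Lyve1 or Prox1, 78 for Inha, 27 for Rgs5 and 8 for Ptprc, with some cells counted under more than 1 gene.

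The name of the cells held against 16 endothelial genes that the rule did not use. All 16 were detected, and 14 stood at least 8-fold above the other kept cells in each of the 5 libraries, where 3.85% of the 8422 genes compared did so. Cldn5, which seals endothelial tight junctions, stood at 1779 CPM against 15.3 CPM in other kept cells. Pecam1 stood at 564 against 5.64 CPM, Cdh5, the VE-cadherin of endothelial junctions, at 703 against 14.3 CPM, and Kdr, the main VEGF receptor, at 630.2 against 7.24 CPM. The 2 exceptions were Cd34, at 825 against 60.04 CPM, and the transcription factor gene Sox18, at 160 against 14.1 CPM, whose smallest ratios in a library were 5.02 and 4.56. Summed, the 16 genes stood at 6449, 6710, 7261, 7611 and 8141 CPM from 2 to 6 wk, and at 90.3 to 300.4 CPM in other kept cells.

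The genes with the highest smallest ratio over the 5 libraries, beside these lists, were Ssu2, Gkn3, Gja5, Gm11730, Rbp7 and Mecom. Mecom, a transcription factor gene, stood at 156 CPM against 0.728 CPM in other kept cells and 0.368 CPM in 214 lymphatic endothelial cells (kept cells with at least 4 of 7 lymphatic markers). Sox17, a transcription factor of arterial identity, stood at 217, 1.17 and 2.94 CPM in the same order. Icam2, an adhesion molecule, Ptprb, the phosphatase that restrains the receptor TIE2, and Pcdh17, a protocadherin, stood at 337, 661 and 433 CPM.

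Lymphatic endothelial cells are the nearest relatives in the ovary, and genes differed in how far their levels there lay from those of blood endothelial cells. Cldn5 stood at 1354 CPM, Kdr at 440.02 CPM and Egfl7 at 863 CPM in lymphatic cells, against 1779, 630.2 and 1108 CPM in blood endothelial cells. Flt1, the decoy VEGF receptor, was set apart, at 878 CPM in blood and 22.4 CPM in lymphatic cells, as was Emcn, the sialomucin endomucin, at 674 and 82.4 CPM. Cd34 stood at 825 and 29.1 CPM. Prox1 and Lyve1 are 0 in blood endothelial cells by the rule, which also set Flt1 apart. Mmrn1, a lymphatic marker the rule did not use, was at 0 in all 5 libraries.

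RNA of other cell types was present to an uneven degree. The summed stromal list stood at 1244, 525, 380, 256 and 144 CPM at 2, 3, 4, 5 and 6 wk, and in other kept cells at 3359, 2124, 1702, 2133 and 2000 CPM. Smooth muscle genes stood at 1307, 513, 473, 294 and 22.9 CPM. Both sums were highest at 2 wk and lowest at 6 wk, in the order of age, and their top genes were Dcn and Acta2. Single cells carried much of these sums, those of smooth muscle genes at 2, 3, 4 and 5 wk above all. Without the cell that held most of the list in each library, the stromal sum was 961, 299, 201, 128 and 91.1 CPM and the smooth muscle sum 290.02, 132, 131, 76.0 and 20.6 CPM. Granulosa genes stood at 123, 233, 264, 72.0 and 177 CPM, pericyte genes at 4.08 to 32.4 CPM with Rgs5 and Higd1b at 0, and hematopoietic genes at 4.68 to 30.8 CPM. Theca, epithelial, and red cell and platelet genes stayed at or under 124 CPM, and the lymphatic list, whose Flt4 also occurs in blood vessels, lay between 35.8 and 73.1 CPM. Members with at least 3 genes of 1 of these other lists numbered 12, 2, 9, 14 and 17, or 54 in all. Scrublet, a caller of doublets (2 cells in 1 droplet), marked 4, 1, 2, 3 and 4 members, and none was removed. The arterial sum, H2-K1, Eln and several of the other lower genes are given below also without the 54 mixed cells.

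Of the 12 arterial genes 11 were compared between ages, and 3 (Bmx, Sema3g and Stmn2) were at least 2-fold lower both for 5 over 2 wk and for 6 over 3 wk, where 1.41% of all genes compared were. The 12 arterial genes summed to 2632, 1254, 1286, 1266 and 1219 CPM at 2, 3, 4, 5 and 6 wk. The 2 wk library stood apart and the other 4 lay close together. The ratio was 0.481 (0.453 to 0.510) for 5 over 2 wk and 0.972 (0.841 to 1.13) for 6 over 3 wk. Without the 54 mixed cells the sums were 3670, 1468, 1479, 1316 and 1288 CPM, so that the 2 wk library then lay further above the rest. Bmx then stood at 124, 79.9, 39.6, 24.5 and 16.9 CPM and Stmn2 at 283, 94.47, 75.6, 62.7 and 29.5 CPM.

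Single arterial genes took different courses. Bmx, a kinase of arterial endothelium, stood at 85.8, 65.7, 33.8, 24.5 and 13.1 CPM at 2, 3, 4, 5 and 6 wk. Sema3g, an arterial semaphorin, stood at 160.3, 143, 78.8, 74.2 and 62.1 CPM. Stmn2, a microtubule regulator, stood at 212, 77.6, 70.3, 57.6 and 22.9 CPM. Each of these 3 was lower at every later age. For Stmn2 this order rests on single cells, since without the cell that held most of its UMIs it stood at 42.8 CPM at 4 wk, under the 5 wk level, and at 10.7 CPM at 6 wk. Gja4, the connexin 37 gene, stood at 322, 173, 256, 93.9 and 133 CPM, with the 5 and 6 wk libraries below the first 3. Jag1, a Notch ligand, was highest at 2 wk, at 319 CPM, and lay between 64.7 and 112 CPM in the others.

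Dll4, the Notch ligand of arteries and of sprouting tips, went the other way at the late ages. It stood at 147, 71.6, 132, 215 and 275 CPM, and its ratio was 1.46 (1.17 to 1.84) for 5 over 2 wk and 3.84 (2.17 to 7.51) for 6 over 3 wk. Sox17 stood at 296, 113, 183, 185 and 272 CPM, with both ends of the series highest. Efnb2, the ephrin ligand of arterial cells, lay between 137 and 232 CPM in all 5 libraries. Of 16 genes of Notch and BMP signalling, 11 were compared, and Id2, an inhibitor of differentiation factors, alone passed 2-fold the same way in both pairs, at 165, 275, 59.1, 40.7 and 65.3 CPM, lower from 4 wk on, where 1.41% of all genes were at least 2-fold lower in both pairs. At 2 wk 1 cell held 41 of the 102 UMIs of Id2, and without it the level there was 102 CPM.

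The capillary list showed no single course. Its sum lay between 525 and 940 CPM, with ratios of 0.817 for 5 over 2 wk and 1.40 for 6 over 3 wk, while the median ratio of its genes lay on the other side of 1 in each pair, at 1.43 and 0.930. Of its 10 members 5 had enough UMIs to be compared, none passed 2-fold the same way in both pairs, Car4 was at 0 UMIs and Timp4 at 1 UMI in all. Rgcc, a regulator of the cell cycle, stood at 211, 149, 245, 302 and 430 CPM at 2, 3, 4, 5 and 6 wk, highest at 6 wk. Gpihbp1, which anchors lipoprotein lipase to the capillary wall, stood at 243, 185, 273, 101 and 97.2 CPM, lower in both late libraries, though the 3 wk level was 117 CPM without 1 cell. Cd300lg, an endothelial immunoglobulin-domain receptor, stood at 21.1, 83.6, 138, 67.0 and 145 CPM, lowest at 2 wk.

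Of 10 venous genes 9 were compared, and none passed 2-fold the same way in both pairs. Venous genes summed to 649, 1451, 1089, 1480 and 792 CPM at 2, 3, 4, 5 and 6 wk, low at both ends of the series. The ratio was 2.28 (2.06 to 2.53) for 5 over 2 wk and 0.546 (0.474 to 0.631) for 6 over 3 wk. Selp, the P-selectin that starts leukocyte rolling, stood at 3.24, 382, 228, 223 and 18.8 CPM. Sele, the E-selectin, stood at 6.48, 119, 70.3, 149.7 and 8.98 CPM. Lrg1, a secreted glycoprotein of inflamed venules, stood at 3.24, 119, 84.4, 93.6 and 22.9 CPM. All 3 were high at 3, 4 and 5 wk and low at 2 and 6 wk. The 3 and 4 wk levels rest on few cells: 1 cell held 37 of the 64 UMIs of Selp at 3 wk and 1 cell 48 of 81 at 4 wk. Without these, Selp stood at 167 and 95.02 CPM at 3 and 4 wk, Sele, treated alike, at 25.4 and 40.3 CPM, and Lrg1 at 49.3 CPM at 3 wk, each still above 2 and 6 wk. The venous sum without the cell that held most of it was 600.03, 1061, 800.4, 1413 and 768 CPM. The ratio of 6 over 5 wk, within one software version, was 0.0842 (0.0530 to 0.127) for Selp and 0.0600 (0.0297 to 0.108) for Sele.

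Of all venous genes, 4 were at least 2-fold higher for 5 over 2 wk (4.94% of all genes were). For 6 over 3 wk 4 were at least 2-fold lower (9.61% of all genes were). Nr2f2, Slco2a1 and Aplnr differed less between the libraries than the selectins. Nr2f2, the transcription factor that specifies veins, lay between 70.3 and 149 CPM, while other kept cells held 178 CPM and lymphatic cells 384 CPM. Slco2a1, the prostaglandin transporter, stood at 207, 394, 318, 531 and 333 CPM. Aplnr, the apelin receptor, lay between 120 and 173 CPM, but stood at 63.2 CPM at 3 wk without 1 cell. Ackr1, the chemokine receptor of venules, had 6 UMIs in all.

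**Figure D2:**
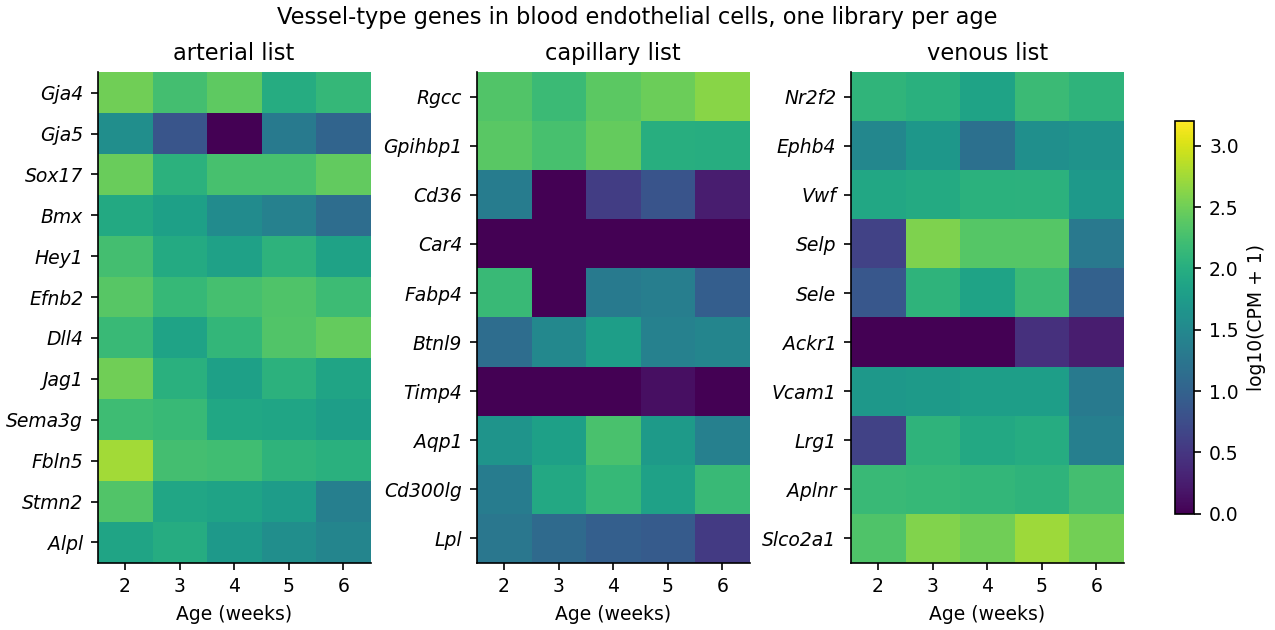
Heat map of the arterial, capillary and venous genes (rows) in blood endothelial cells at each age in weeks (columns), with colour giving log10(CPM + 1) in 1 library per age. Selp, Sele and Lrg1 are bright at 3, 4 and 5 wk and dark at 2 and 6 wk, and Bmx and Stmn2 darken from 2 to 6 wk.

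To see how the cells varied among themselves, all 415 were clustered after centring within each library, with the 6 choosing genes left out. There were 10 clusters. A cluster could be called arterial-, capillary- or venous-like when at least 3 genes of that list marked it. Clusters 3 and 6 were arterial-like (90 cells), clusters 5 and 7 venous-like (82 cells), and clusters 4, 8 and 9 had no such name (97 cells). Clusters 1, 2 and 10 (146 cells) were marked by 3, 4 and 3 capillary genes but by 5, 6 and 10 tip cell genes, so they are given by number and not by a vessel name. Their genes built the clusters and are given as descriptions.

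Both arterial-like clusters held Sox17 and Bmx but had different leading genes. Cluster 3 (49 cells; 12, 5, 8, 19 and 5 at 2, 3, 4, 5 and 6 wk) was led by Gkn3, at 199.9 against 0.862 CPM in the other members, Stmn2, at 629.5 against 9.05 CPM, and Eln, the gene of tropoelastin that gives arterial walls their recoil, at 1767 against 38.6 CPM. Cluster 6 (41 cells) was led by Mfsd2a, a lipid transporter of barrier endothelium, at 224 against 2.96 CPM, by Spock2 and by Ptn, the pleiotrophin gene, at 955 against 105 CPM. It also held the chemokine Cxcl12 at 1562 against 252 CPM.

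The venous-like clusters differed by Selp. Cluster 5 (45 cells) was led by Adgrg6, an adhesion receptor, at 97.0 against 1.70 CPM, Selp, at 1335 against 42.1 CPM, the water channel gene Aqp1 and Vcam1, the ligand of leukocyte integrins. Cluster 7 (37 cells), the other venous-like one, was led by Gypc, Ankrd2, Tgfbi, Irx5 and Gpr182 and showed Nr2f2, Aplnr and Slco2a1.

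Of the clusters with capillary and tip cell genes, cluster 1 (67 cells) was led by Rgs4, Rbfox3 and Tbxa2r. Cluster 2 (58 cells) was led by 8430408G22Rik, Cxcr4 and Esm1, the latter 2 known from sprouting tip cells. Cluster 10 (21 cells) was led by Kcne3 and Esm1, at 339.8 against 70.1 CPM, by the capillary gene Btnl9 and by the DNA replication genes Mcm2, Mcm5 and E2f1. One cell held 38.3% of the Esm1 of cluster 10 and 36.7% of that of cluster 2.

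The 3 clusters without a vessel name had clear leading genes of another kind. Cluster 4 (45 cells, 26 of them at 5 wk) was led by Cxcl9, Ifit2, Ifit3 and Rsad2, genes that interferons switch on, though 1 cell held 54.8% of its Cxcl9, 56.6% of its Rsad2 and 39.4% of its Ifit3. Cluster 8 (30 cells) was led by the mitotic genes Prc1, Nusap1, Plk1 and Hmmr, at a median of 21012 UMIs per cell. Cluster 9 (22 cells, 9 of them at 2 wk) was led by Myh11, Acta2, at 1967 against 10.6 CPM, and Dcn, at 1053 against 10.6 CPM, which are smooth muscle and stromal genes; 1 cell held 55.6% of its Myh11 and 46.5% of its Dcn. All 22 cells of cluster 9 were among the 54 mixed cells, at a median of 22226 UMIs.

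**Figure D3:**
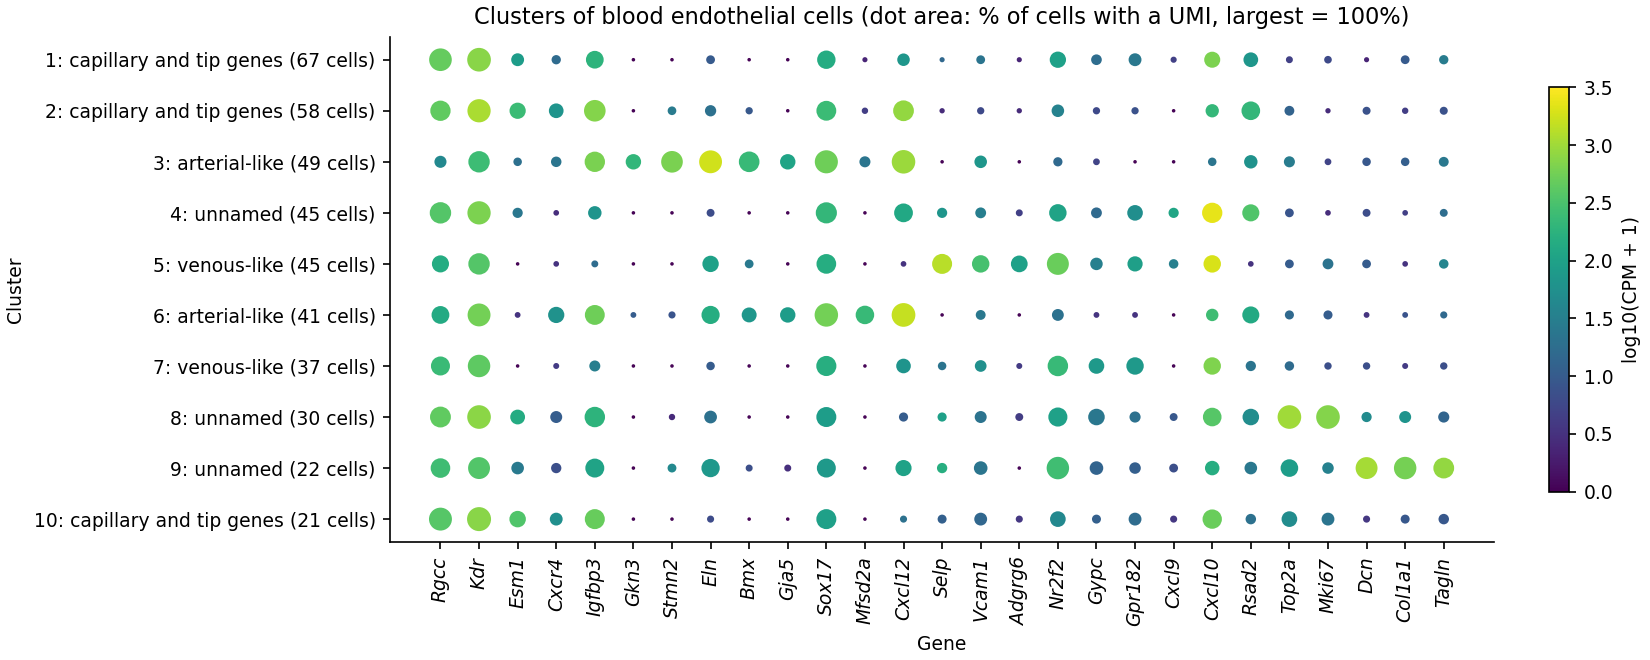
Dot plot of the 10 clusters of blood endothelial cells (rows) by 27 genes (columns): dot area is the percentage of cells of the cluster with a UMI, colour is log10(CPM + 1) summed over the 5 libraries. Gkn3, Stmn2 and Eln are brightest in cluster 3, Mfsd2a in cluster 6, Selp and Adgrg6 in cluster 5, Mki67 and Top2a in cluster 8, and Dcn, Col1a1 and Tagln in cluster 9.

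Each group had cells at every age. Arterial-like cells were 18, 7, 12, 36 and 17 of the members at 2, 3, 4, 5 and 6 wk. Clusters 1, 2 and 10 together held 15, 12, 19, 57 and 43, and venous-like cells 8, 6, 10, 39 and 19. Since arterial and venous genes that differ between the ages also drew the clusters, no difference in these shares is read. Of the 415 cells, 140 held at least 5 arterial genes, 95 at least 5 venous genes, and 16 both. All 16 were in the 5 wk library, which is the deepest per cell, and the part of depth in this was not tested.

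Ages were then compared over all genes by the 2 pairs of libraries that share none, 5 over 2 wk and 6 over 3 wk, with 7354 genes at 20 UMIs or more in each pair. At least 2-fold higher were 4.94% of genes in the first pair and 13.4% in the second, and at least 2-fold lower 3.90% and 9.61%. In both pairs 106 genes (1.44%) were at least 2-fold higher, 104 (1.41%) at least 2-fold lower, and 76 lay on opposite sides. The median ratio over all genes was 0.943 and 1.01. Of the 106, 34 were also at least 2-fold higher in other kept cells in both pairs, and of the 104, 4 were also lower there. Among the 3937 genes with at least the level of other kept cells, 92 (2.34%) were higher and 31 (0.787%) lower in both pairs. This level was pooled over the libraries, and the 5 and 6 wk libraries hold most of the UMIs. Genes high there pass this filter more readily than genes low there, so these 2 counts are not set against each other.

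**Figure D4:**
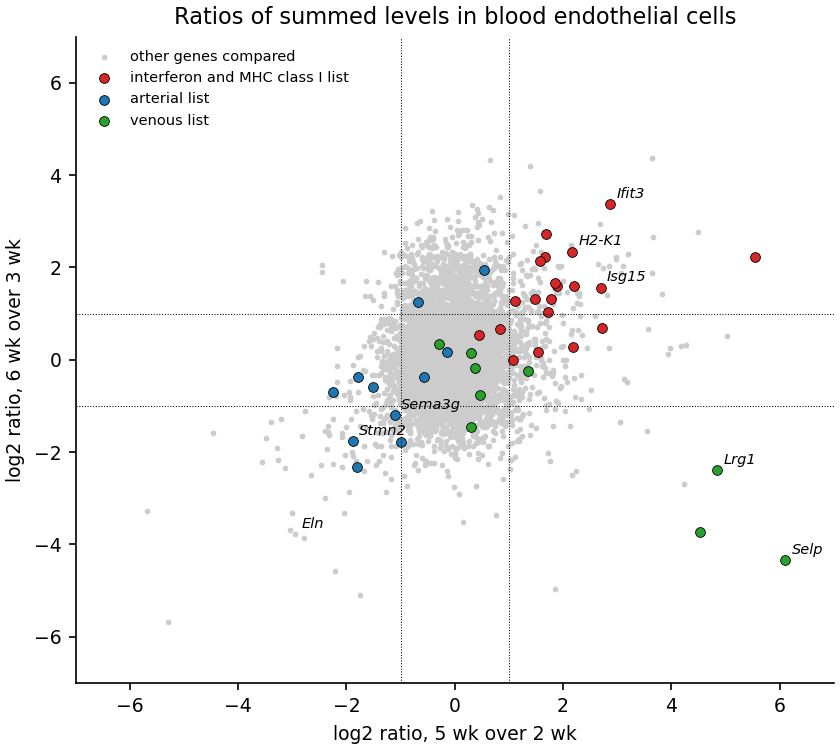
Each point is a gene in blood endothelial cells, with the log2 ratio of CPM at 5 over 2 wk (x axis) and at 6 over 3 wk (y axis); dotted lines mark 2-fold. Genes of the interferon and MHC class I list lie mostly in the upper right, Eln, Stmn2 and Sema3g in the lower left, and Selp and Lrg1 in the lower right.

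Genes of the interferon response and of MHC class I stood out on the higher side. Of the 20 genes on this list, 14 were at least 2-fold higher in both pairs and 0 lower, where 1.44% of all genes were higher. The list was chosen with earlier results of these data known, so this count is a description. Their median ratio was 3.36 for 5 over 2 wk and 2.73 for 6 over 3 wk. The summed list stood at 4028, 5181, 7475, 10234 and 9970 CPM at 2, 3, 4, 5 and 6 wk, with the 5 and 6 wk libraries above the rest. Other kept cells held 796, 839, 1106, 1829 and 1529 CPM, a lower level with the same 2 libraries on top.

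MHC class I molecules present peptides to cytotoxic T cells, and H2-K1 and H2-D1 are their classical heavy chains in this strain. H2-K1 stood at 289.9, 251, 751, 1303 and 1271 CPM at 2, 3, 4, 5 and 6 wk. Its ratio was 4.50 (3.87 to 5.25) for 5 over 2 wk and 5.07 (3.73 to 7.06) for 6 over 3 wk. Within one software version it was 2.59 (2.14 to 3.15) for 4 over 2 wk and 0.975 (0.918 to 1.04) for 6 over 5 wk. Part of the H2-K1 difference was thus present among the 3 early libraries. Other kept cells gave 3.32 for 5 over 2 wk and 1.86 for 6 over 3 wk. H2-D1 stood at 436, 287, 546, 1292 and 1260 CPM. B2m, the light chain of all class I molecules, stood at 338, 239, 506, 1068 and 1126 CPM. In all 3 genes the 5 and 6 wk libraries lay above the first 3, and 3 wk was lowest. H2-D1 and B2m differed less between 2 and 4 wk than H2-K1 did. Their largest step in CPM lay from 4 to 5 wk, where the software version also changed. H2-Q7, H2-Q6 and H2-Q4 were higher in both pairs too, but class I heavy chain genes are near copies, and reads between them may be shared out or lost.

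Among genes that feed peptides to class I, Psmb8 and Psmb9 were also at least 2-fold higher in both pairs, and Tap1 was not. Psmb8, a subunit of the immunoproteasome, stood at 79.4, 107, 183, 222 and 266 CPM, higher at each later age. Psmb9, its partner, was at 27.5, 0, 36.6, 88.2 and 118 CPM. Tap1, the peptide transporter, stood at 21.1, 47.8, 70.3, 95.7 and 58.0 CPM, and passed 2-fold only in the first pair.

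Interferon-induced genes outside antigen presentation took more than one course. Isg15, a ubiquitin-like protein, stood at 43.7, 95.5, 194, 284 and 283 CPM at 2, 3, 4, 5 and 6 wk, with ratios of 6.49 (4.42 to 9.91) for 5 over 2 wk and 2.96 (1.80 to 5.24) for 6 over 3 wk. Its ratio of 4 over 2 wk was 4.44 (2.81 to 7.21). Ifit3, an antiviral protein of the IFIT family, stood at 0, 5.97, 11.3, 35.6 and 62.1 CPM (39.4 CPM at 6 wk without the cell that held 28 of its 76 UMIs), at least 7.33-fold higher at 5 than at 2 wk when the 0 is set to 3 UMIs. Other kept cells gave ratios of 11.9 and 7.34 for Isg15 and 17.7 and 19.3 for Ifit3, so that these genes were not higher in blood endothelial cells alone. Irf7, a transcription factor of the interferon response, stood at 19.4, 23.9, 30.9, 66.2 and 59.6 CPM. Ifitm3, at 1108, 2173, 2096, 2321 and 2152 CPM, differed from these: only the 2 wk library was low.

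Over all genes at or above the pooled level of other kept cells, the 12 with the highest smaller ratio in the 2 pairs were H2-Q7, Ifit3, Ifi44, Ifit2, Hist1h1b, H2-Q6, Lipe, Ifit1, Atp1b1, H2-K1, H2-Q4 and Usp18. Within single libraries, Hist1h1b lay below other kept cells at every age (0.154- to 0.939-fold). At 5 wk, cluster 8 held 385 of its 397 UMIs. Atp1b1 (0.240- and 0.515-fold) and Lipe (0.536- and 0.887-fold) lay below other kept cells at 2 and 3 wk. Of these, Ifit3, Ifit1 and H2-K1 belong to the list already counted, and Ifi44, Ifit2, Usp18 and the H2-Q genes are also interferon-induced or class I genes. At 3 wk H2-K1 had 42 UMIs, Atp1b1 4, Ifi44 3, and H2-Q7 and H2-Q4 2 each. Usp18, Lipe, Ifit2 and Ifit3 had 1 UMI each there and Hist1h1b, H2-Q6 and Ifit1 had 0. Usp18 was not higher at 6 wk (25.3 CPM) than at 4 wk (28.1 CPM), so its place here rests on that 1 UMI. Ifi44 stood at 4.86, 17.9, 47.8, 109 and 123 CPM. Atp1b1, the beta subunit of the sodium pump, is not such a gene. It stood at 16.2, 23.9, 67.5, 127 and 109 CPM. Its ratios were 7.87 (4.23 to 16.6) and 4.55 (1.74 to 16.9), where other kept cells had 0.537 and 0.598.

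Interferon-induced genes commonly carry an interferon-stimulated response element, here searched as GAAA, 2 bases of any kind and GAAA again, on both strands, in the 300 bases from 250 before to 50 after each RefSeq start (GRCm38.p6). H2-T23, a class I heavy chain of the list, stood at 19.4, 23.9, 25.3, 71.6 and 71.9 CPM. The promoters of H2-T23 and of 4 of the genes named above are shown over 60 bases around the match nearest to the start, read 5′ to 3′ on the strand of the gene, with every match in the stretch in capitals.
Ifit1, chr19:34640779-34640838, + strand: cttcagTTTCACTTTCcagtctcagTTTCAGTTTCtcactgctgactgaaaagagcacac
Ifit3, chr19:34583382-34583441, + strand: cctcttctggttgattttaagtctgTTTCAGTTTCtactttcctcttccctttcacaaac
Isg15, chr4:156200850-156200909, − strand: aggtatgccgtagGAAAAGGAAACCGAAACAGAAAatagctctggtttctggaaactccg
B2m, chr2:122147523-122147582, + strand: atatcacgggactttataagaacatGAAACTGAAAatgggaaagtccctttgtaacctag
H2-T23, chr17:36032791-36032850, − strand: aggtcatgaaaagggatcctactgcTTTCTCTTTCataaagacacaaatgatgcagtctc
The stretch of Ifit1 held 2 matches and that of Isg15 held 3, which overlap. The match nearest to the start lay 85 to 76 bases before the start of Ifit1, 122 to 113 before Ifit3, 66 to 57 before Isg15 and 139 to 130 before B2m. At this match Ifit1 and Ifit3 have the same 10 letters, in the reverse orientation to Isg15 and B2m.

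Of the 16 list genes with a promoter in the table, 10 held the motif (62.5%), against 1079 of 27025 genes (3.99%). Of the 92 genes higher in both pairs, 73 had a promoter, and 19 of these held it (26.0%), against 151 of 3089 genes (4.89%) that could have been called. Of the 19, B2m, Bst2, Gbp2, H2-T23, Ifit1, Ifit3, Igtp and Isg15 are list genes already counted, so the 26.0% is not separate from the 62.5%. Several of the 19 are close relatives that share sequence, such as Ifi203, Ifi213 and Mndal. Of the 31 genes lower in both pairs under this filter, 23 had a promoter and 3 held it (13.0%, in Edn1, Fbn1 and Nebl), also above the 4.89%. A match describes letters, not binding.

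The higher class I level was present in each of these groups. H2-K1 in arterial-like cells stood at 542, 413, 652, 1616 and 1723 CPM at 2, 3, 4, 5 and 6 wk. In clusters 1, 2 and 10 together it stood at 131, 302, 887, 1375 and 1275 CPM, and in venous-like cells at 248, 50.6, 751, 1151 and 1197 CPM, the 3 wk value being 1 UMI. All 3 groups had their 2 highest values at 5 and 6 wk. Without the 54 mixed cells, H2-K1 stood at 361, 291, 774, 1362 and 1307 CPM in all members.

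**Figure D5:**
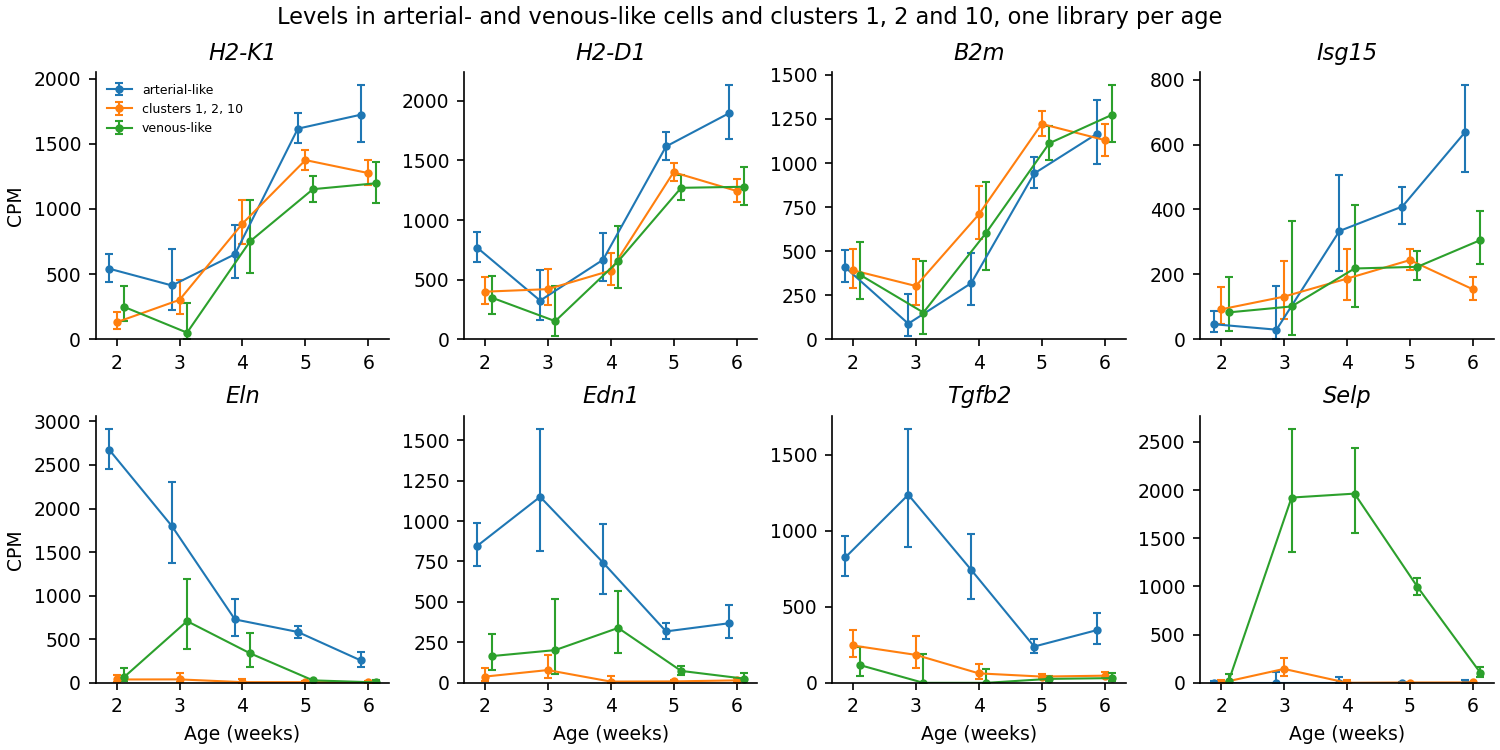
CPM (y axis) of 8 genes in arterial-like cells, venous-like cells and clusters 1, 2 and 10 together against age in weeks (x axis), 1 library per age; lines give the exact 95% Poisson interval of the count. H2-K1, H2-D1 and B2m are highest at 5 and 6 wk in all 3 groups, and Eln, Edn1 and Tgfb2 are highest in arterial-like cells at 2 or 3 wk. Selp is high in venous-like cells at 3, 4 and 5 wk only, but 1 cell held 37 of its 38 UMIs there at 3 wk and 1 cell 48 of 81 at 4 wk.

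On the lower side, under the same pooled filter, the 12 genes with the lowest larger ratio were Eln, Tgfb2, Edn1, Syt11, Nebl, Ltbp4, Fbln2, Bmx, Stmn2, Eps8l2, Ace and Egfl8. Eln stood at 881, 513, 197, 114 and 37.6 CPM at 2, 3, 4, 5 and 6 wk, lower at each later age, also with 74.7 CPM at 5 wk, the level without the cell that held most of it there. Its ratio was 0.130 (0.112 to 0.149) for 5 over 2 wk and 0.0732 (0.0500 to 0.106) for 6 over 3 wk. Within one software version it was 0.224 for 4 over 2 wk and 0.329 for 6 over 5 wk. In other kept cells the ratio was 0.245 for 5 over 2 wk and 0.271 for 6 over 3 wk. Eln is also a smooth muscle and stromal gene, and sums of those types were highest at 2 wk. Without the 54 mixed cells Eln stood at 1355, 574, 155, 115 and 46.4 CPM. Cells with fewer than 3 genes of another list stayed in, and the part of RNA of other types in these levels was not tested.

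Ltbp4, which binds latent TGF-beta, and Fbln2, a fibulin of the matrix, had the same order. Ltbp4 stood at 555, 406, 354, 150.1 and 96.4 CPM, and Fbln2 at 504, 269, 174, 143 and 58.8 CPM. Tgfb2, a TGF-beta ligand, stood at 335, 334, 166, 70.6 and 70.2 CPM, with 2 and 3 wk alike, 4 wk between and 5 and 6 wk alike. The ratios in other kept cells were 0.539 and 0.741 for Ltbp4, 1.20 and 0.620 for Fbln2 and 0.616 and 1.03 for Tgfb2, and pericytes held Ltbp4 at 308 CPM. Without the mixed cells Ltbp4 stood at 693, 421, 328, 149 and 99.1 CPM. Fbln2 then stood at 747, 312, 205, 135 and 65.3 CPM and Tgfb2 at 466, 407, 148, 71.8 and 81.1 CPM, each with 2 wk highest and 5 and 6 wk lowest.

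Of 12 genes of flow and vessel tone, 3 (Edn1, Ace and Klf4) were at least 2-fold lower in both pairs, where 1.41% of all genes were, and 0 higher. Edn1, the vasoconstrictor endothelin 1, stood at 306, 304, 180.1, 72.4 and 61.3 CPM at 2, 3, 4, 5 and 6 wk, with ratios of 0.236 (0.193 to 0.290) and 0.201 (0.139 to 0.293), while other kept cells gave 3.86 and 1.17. Without the mixed cells it stood at 453, 356, 205, 80.6 and 67.4 CPM, and the 4 wk level without 1 cell was 108 CPM. Ace, which makes angiotensin II, stood at 105, 89.5, 53.5, 34.2 and 19.6 CPM, and without the mixed cells at 134, 87.2, 54.0, 37.0 and 22.1 CPM. Klf4, a transcription factor that responds to flow, was also lower in both pairs, at 934, 883, 489.5, 434 and 389 CPM. Klf2, its close relative, was not, at 1595, 1212, 968, 1177 and 1514 CPM, and neither was Nos3, the endothelial nitric oxide synthase, at 79.4, 125, 98.5, 122 and 80.0 CPM.

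Eln, Edn1 and Tgfb2 were also read inside arterial-like cells. There Eln stood at 2678 (2452 to 2918), 1798 (1375 to 2309), 728 (537 to 965), 584 (517 to 656) and 257 CPM (181 to 354) at 2, 3, 4, 5 and 6 wk. Edn1 stood at 846, 1149, 743, 318 and 368 CPM and Tgfb2 at 825, 1238, 743, 239 and 347 CPM. Both were lower at 5 and 6 wk than at 2, 3 and 4 wk. Eln is a leading gene of cluster 3 and helped to draw this group, so its level there is a description. Cluster 3 held 12 of 18, 5 of 7, 8 of 12, 19 of 36 and 5 of 17 of these cells and cluster 6 the rest, so cluster 3 was a smaller share of them at 5 and 6 wk, and the part of this mix in these levels, and in that of H2-K1 above, was not tested.

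The selectins have partners in leukocyte traffic. Of 13 adhesion and chemokine genes, 8 were compared, and Cxcl12 alone passed 2-fold the same way in both pairs, as a lower gene, where 1.41% of all genes were. Icam1, the ligand of leukocyte integrins, stood at 239.7, 412, 442, 539.6 and 194 CPM at 2, 3, 4, 5 and 6 wk, and Cxcl10, which draws activated T cells, at 61.5, 119, 309, 1181 and 149 CPM. Both were highest at 5 wk and lower at 6 wk, with 6 over 5 wk ratios of 0.360 (0.313 to 0.413) and 0.126 (0.108 to 0.146). Without the cell that held most of it, Cxcl10 stood at 30.9, 37.2 and 180.1 CPM at 2, 3 and 4 wk, so that 5 wk stayed highest. In venous-like cells Cxcl10 stood at 166, 0, 460.4, 2270 and 62.2 CPM and Selp at 16.6, 1922, 1963, 995 and 104 CPM. There 1 cell held 37 of the 38 Selp UMIs at 3 wk, and 1 cell 48 of 81 at 4 wk. Selp is also a leading gene of cluster 5 and helped to draw this group, so its level there is a description. Iigp1, an interferon-induced GTPase, also stood apart at 5 wk, at 98.8, 119, 290, 647 and 192 CPM. Cxcl12, which retains cells that carry Cxcr4, was lower, at 638, 824, 394, 279 and 325 CPM, and at 807, 974, 446, 301 and 384 CPM without the mixed cells. Madcam1, the addressin of gut venules, was at 0 UMIs.

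Genes of sprouting gave a mixed picture. Of 14 tip cell genes 11 were compared, and 1 of them, Esm1 (endocan, a secreted proteoglycan of tip cells), was at least 2-fold higher in both pairs, against 1.44% of all genes. It stood at 8.10, 47.8, 129, 58.7 and 196 CPM, so that 5 wk lay below 4 wk, as it did when the 4 wk level was taken without 1 cell (72.0 CPM). Pdgfb, which recruits pericytes to sprouts, stood at 109, 119, 121, 204 and 285 CPM, and Apln, the apelin ligand, between 35.6 and 74.3 CPM, with 35.2 CPM at 4 wk without 1 cell. The whole list summed to 1020, 806, 1086, 1234 and 1528 CPM.

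The receptors through which endothelium senses growth factors were close to level. Of 20 vascular receptor genes, 19 were compared and none passed 2-fold the same way in both pairs. Kdr stood at 434, 597, 709, 625 and 723 CPM, and the list summed to 5385, 7157, 6549, 6008 and 5857 CPM. Of 15 compared endothelial transcription factors, none passed 2-fold the same way in both pairs either, and their sums lay between 2835 and 3506 CPM. Single factors were less level. For 5 over 2 wk 2 were at least 2-fold higher (4.94% of all genes were). For 6 over 3 wk 2 were higher and 2 lower (13.4% and 9.61% of all genes were). Plvap, which forms the diaphragms of fenestrae, was a pan-endothelial gene with a course of its own, at 129.6, 239, 324, 81.3 and 67.8 CPM, highest at 4 wk, with 148 CPM at 3 wk without 1 cell. Sox18, which is also on the list of transcription factors, stood at 191, 35.8, 25.3, 122 and 286 CPM, lowest at 3 and 4 wk.

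Dividing members, those with at least 3 of 15 division genes, were 30.4%, 10%, 15.4%, 20.3% and 28% at 2, 3, 4, 5 and 6 wk. After thinning to 2000 UMIs they were 13.0% (5.37 to 24.9), 4.17% (0.105 to 21.1), 8.70% (2.42 to 20.8), 9.04% (5.26 to 14.3) and 14.3% (8.04 to 22.8). These intervals overlapped, so no order of the ages is read. Of the 15 genes, Cenpf and Ube2c were at least 2-fold higher in both pairs, where 1.44% of all genes were, and 3 were at least 2-fold lower for 5 over 2 wk (3.90% of all genes were). For 6 over 3 wk 9 were at least 2-fold higher, where 13.4% of all genes were, and 0 lower. At 6 wk 1 cell held 58 of the 108 UMIs of Cenpf, which stood at 88.2 CPM with it and 41.6 CPM without it. The summed division list stood at 855, 418, 1272, 955 and 1387 CPM, against 928 to 1121 CPM in other kept cells, and at 689, 181, 824, 852 and 1169 CPM without the cell that held most of it.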

How the data were processed

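The authors dissociated whole ovaries, sorted live cells, counted reads on mm10 with Cell Ranger and deposited filtered tables of UMI counts per gene and cell, as whole numbers without normalization. Labels name Cell Ranger 3.1.0 and Seurat 4.1.0; file headers name Cell Ranger 3.1.0 for 2, 3 and 4 wk and 6.0.1 for 5 and 6 wk. From these counts, UMIs were summed over blood endothelial cells of each library and divided by their total (CPM). Intervals are exact (Poisson, binomial, conditional binomial for ratios). Genes were called enriched at 8-fold or more in every library (at least 50 UMIs), and higher or lower at 2-fold or more in both age pairs (at least 20 UMIs per pair); a count of 0 was set to 3 UMIs. Cells were clustered in scanpy 1.11.5 with 2000 variable genes, 20 components, 15 neighbours and Leiden resolution 1.0. Scrublet calls were not removed. Named genes are those of 27 lists, the 30 most enriched, the 12 with the highest and the 12 with the lowest ratios in both pairs among genes at or above other cells (without mitochondrial and ribosomal genes), and the 10 leading genes of each cluster; Fbn1, Ifi203, Ifi213 and Mndal were added as examples after their values were seen. Members and lists were chosen with earlier results of these data known. A first lymphatic set (at least 2 of 7 markers, 2531 cells) held Pecam1 in only 13.6% of cells, so at least 4 of 7 was used. Steps were tested on simulated data. Alternatives changed the filters, the marker number, doublets, scaling, depth and cluster resolution. Promoters are RefSeq (GRCm38.p6). Python 3.11.15, numpy 2.4.6 and scipy 1.17.1 were used.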

Additional observations from a re-analysis of the deposited data

How the results depend on the processing

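Of the values that answer a comparison, 92 kept their size under the alternatives and 19 moved, and of 336 values of named genes 304 kept their size, 31 moved and 1 reversed: Usp18, with a log2 ratio of −0.15 when 6 wk was set over 4 wk in place of 3 wk. Thinned to 2000 UMIs per cell, the share was 0.506% at 2 wk and 3.01% at 5 wk. In place of 106 genes higher in both pairs there were 70 with at least 50 UMIs per pair, 37 with thinned cells (15 shared with the 106) and 66 with 6 over 4 wk (39 shared). In place of 104 lower genes there were 37 with at least 50 UMIs, 411 with at least 5 UMIs and 23 with thinned cells (11 shared with the 104). The arterial sum at 5 over 2 wk (log2 −1.06) became −1.15 with at least 5 of the 6 choosing genes, −1.18 without called doublets and −1.48 without the 54 mixed cells. The capillary sum at 5 over 2 wk (log2 −0.29) became −0.62 without the mixed cells and −0.48 as a mean over cells. As a mean over cells the venous sum became 0.79 from 1.19 (5 over 2 wk) and −0.56 from −0.87 (6 over 3 wk). Resolution 0.5 gave 5 clusters in place of 10, with 222 cells in clusters marked by at least 3 capillary genes in place of 146; resolution 1.5 gave 77 such cells and clustering without centring 46. The causes were not tested. Without the mixed cells, 87 genes were higher (56 shared with the 106) and 91 lower (52 shared with the 104). The settings without mixed cells, with 6 over 4 wk and without the cell that held most of a gene or list were chosen after seeing the data. The 3 wk library, with 167523 UMIs in 30 cells, limits every ratio of 6 over 3 wk. No paired analysis was possible because each age has 1 library and no test was run.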

Other observations

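Basement membrane genes, which build the sheet under the endothelium, were near level across the ages. None of the 13 passed 2-fold the same way in both pairs. Sparc, a matrix-binding glycoprotein, stood at 4551, 5778, 7244, 5600 and 5954 CPM at 2, 3, 4, 5 and 6 wk, and Col4a1, a chain of type IV collagen, at 1207, 1773, 2054, 1555 and 1501 CPM. Both were lowest at 2 wk and highest at 4 wk.

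Receptors for ovarian hormones were scarce in these cells, and of 10 hormone receptor genes 4 could be compared, none past 2-fold the same way in both pairs. Pgr had 0 UMIs, Fshr and Lhcgr 1 UMI each, Esr2 13 and Esr1 23 UMIs among 5142882 UMIs of all members, and at these counts no age could be compared. Nr3c1, the glucocorticoid receptor, lay between 134 and 173 CPM. Insr, the insulin receptor, stood at 93.9, 89.5, 138, 234 and 137 CPM, highest at 5 wk. Of 9 lipid uptake genes 3 were compared, and none passed 2-fold the same way in both pairs. Scarb1, the receptor for high-density lipoprotein, stood at 141, 131, 262, 277 and 231 CPM, lower at 2 and 3 wk than later.

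Of 10 imprinted fetal growth genes 4 were compared. Cdkn1c, an imprinted inhibitor of the cell cycle, was at least 2-fold lower in both pairs (1.41% of all genes were), at 245, 203, 90.03, 108 and 89.0 CPM. The summed list stood at 645, 489, 354, 326 and 282 CPM. In other kept cells it stood at 661, 569, 423, 398 and 353 CPM, also lower at each later age. Of 18 genes induced by dissociation, none passed 2-fold the same way in both pairs. Their sum stood at 15369, 14643, 17429, 18991 and 14872 CPM, and at 13273, 16476, 15236, 18886 and 13798 CPM in other kept cells.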
